A study of Mus musculus with 10 samples.

Results

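The 28 genes described here encode enzymes that make cholesterol and fatty acids, the proteins that sense sterols and switch those enzymes on, and 1 sterol carrier. They were taken by name from a list, with no cut on a measured value but with earlier results of these data known. They come out of 55494 annotated genes with a transcript in the files. All 28 were among the 13729 genes expressed highly enough to be tested. The cells are leukemia initiating cells, transformed B cell precursors obtained by cell sorting of spleens of mouse pups aged 13 days. All pups carried the RFP/RET fusion transgene (the Eμ-Ret line). Of the pups, 5 were given 50 µl of PBS and 5 were given 20 µg of Poly(A:U), a double-stranded RNA made by synthesis that Toll-like receptor 3 recognises, and the cells were taken 7 days later. As far as the labels go, the groups differ in treatment alone and the transgene is common to both. The comparison asks whether Poly(A:U) altered the cells, here for the lipid synthesis genes.

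Animal cells build cholesterol from acetyl-CoA through mevalonate and isoprenoid intermediates to squalene, and then close and trim the sterol ring. When sterols in the endoplasmic reticulum run low, the escort protein SCAP carries the SREBP transcription factors, products of Srebf1 and Srebf2, to the Golgi, where they are cut and released to switch on the enzymes, while the INSIG proteins hold SCAP back when sterols are plentiful. Fatty acid synthesis starts from the same acetyl-CoA, and dividing lymphoid cells use both products for membranes.

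Libraries held 17859006 to 22587871 estimated reads, and expression is given as CPM, in which the reads of every library are scaled to the same total. The B cell precursor label was checked on 9 defining genes, among them Cd79a, Pax5 and Rag2, all of which were tested, and whose summed level ran from 7765 to 12473 CPM. Markers of other cells were not evenly spread. The 7 neutrophil genes summed to between 681 and 1024 CPM in PBS 1, 2 and 3 and to between 28.9 and 257 CPM in the other 7 libraries. The erythroid genes summed to between 139 and 433 CPM in PBS 1, 2 and 3 and between 1360 and 12309 CPM elsewhere. Of the erythroid genes, Car1 did not follow this sum. Its values were 1.71 to 2.52 CPM in PBS 1, 2 and 3 and 0.167 to 6.34 CPM elsewhere. PBS 4 stood apart from the rest, with the lowest B cell precursor sum and the highest macrophage sum (139 CPM against at most 34.7 in any other library). It also had the highest T cell sum (77.3 CPM against at most 12.1), of which Cd3e alone gave 53.9 CPM. The T cell genes did not all go that way. Cd3g, Cd4 and Lat were also highest in PBS 4, but Cd8a was not, and Cd3d, at 0.147 CPM, was the lowest of the PBS libraries. The library names have parts in common, whose meaning the labels do not give: PBS 1, 2 and 3 share the start of their name, PBS 4 shares a part with Poly(A:U) 5, PBS 5 shares one with Poly(A:U) 1, and Poly(A:U) 3 shares one with Poly(A:U) 4.

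Promoters are shown for Srebf1, whose start sites bear on a result below, and for Hmgcs1 and Sc5d. RefSeq promoter windows of build GRCm38.p6, running from 250 bases before to 50 bases after the start, were matched by symbol for 23 of the 28 genes, in 31 windows. The 250 bases before the start are printed 5′ to 3′ for Hmgcs1, the only one of these 31 windows with the core of a sterol regulatory element. They are also printed for the 1a and 1c promoters of Srebf1, and for Sc5d, the only gene of the 28 whose groups did not overlap. Srebf1 has 3 windows, and the one farthest upstream is not shown. The Sc5d stretch ends at base 42264301, upstream of the opening exons of its 2 main transcripts. On the minus strand these exons begin at 42264256 for Sc5d-201 and 42264200 for Sc5d-202. Capitals mark the motifs searched on both strands, which were TCACNCCAC (sterol regulatory element core), TCACGTGA (an E-box that SREBP binds), CCAAT (bound by NF-Y, reading ATTGG on the other strand) and GGGCGG (the GC box, reading CCGCCC on the other strand).
Hmgcs1, chr13:119690101-119690350, plus strand: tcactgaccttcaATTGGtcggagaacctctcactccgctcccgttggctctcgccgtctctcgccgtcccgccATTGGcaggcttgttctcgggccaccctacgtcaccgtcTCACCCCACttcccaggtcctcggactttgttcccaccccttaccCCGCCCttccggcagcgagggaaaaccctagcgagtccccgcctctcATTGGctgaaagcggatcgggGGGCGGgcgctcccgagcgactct
Srebf1 1a, chr11:60220628-60220877, minus strand: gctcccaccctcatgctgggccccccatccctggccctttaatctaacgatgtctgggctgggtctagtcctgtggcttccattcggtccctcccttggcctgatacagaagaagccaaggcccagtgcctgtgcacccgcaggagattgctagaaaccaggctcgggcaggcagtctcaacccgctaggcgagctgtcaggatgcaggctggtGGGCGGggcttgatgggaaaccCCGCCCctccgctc
Srebf1 1c, chr11:60210472-60210721, minus strand: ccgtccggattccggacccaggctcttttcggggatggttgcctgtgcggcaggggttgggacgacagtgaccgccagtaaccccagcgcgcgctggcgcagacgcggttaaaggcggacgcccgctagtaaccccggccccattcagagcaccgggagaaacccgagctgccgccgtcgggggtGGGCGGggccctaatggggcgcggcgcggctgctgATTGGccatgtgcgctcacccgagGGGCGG
Sc5d, chr9:42264301-42264550, minus strand: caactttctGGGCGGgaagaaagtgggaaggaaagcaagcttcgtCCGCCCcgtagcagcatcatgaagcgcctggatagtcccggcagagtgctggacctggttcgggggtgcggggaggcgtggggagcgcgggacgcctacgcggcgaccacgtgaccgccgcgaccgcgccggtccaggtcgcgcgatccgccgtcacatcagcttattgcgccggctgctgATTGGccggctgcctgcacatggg

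CCAAT was found in 21 of the 31 windows (67.7%), against 37.4% of all 32851 windows of the same length. The GC box was found in 23 of 31 (74.2%), against 35.7% of all windows. The sterol regulatory element core was found in 1 of 31 (3.23%), against 1.24% of all windows, and the E-box in none, against 0.974%. Hmgcs1 carried 3 CCAAT boxes and 2 GC boxes around its element in the stretch shown, and the 1a promoter of Srebf1 carried GC boxes but no CCAAT box. A match is a description of the letters in the window and does not show that a factor binds there.

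To compare genes with each other, levels were divided by transcript length, as CPM per kb of the transcript length weighted by reads. Of the 5 sensing genes, 3 were among the 6 highest of the 28. Scap, the SREBP escort, reached 70.5 ± 5.69 CPM per kb (SD, n = 10), above 90.6% of tested genes, and Srebf2, the SREBP of cholesterol synthesis, reached 45.8 ± 2.71. The third, Srebf1, stood at 21.4 ± 1.37, while Insig1 and Insig2, the proteins that retain SCAP, were low, at 7.27 ± 1.23 and 5.41 ± 0.903. Acly, the ATP citrate lyase that supplies cytosolic acetyl-CoA, was second of all 28 with 63.0 ± 6.70 CPM per kb.

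The enzymes of the sterol pathway lay lower and were spread widely. Of the 8 mevalonate steps, Fdps, the farnesyl diphosphate synthase, was highest with 20.7 ± 2.68 CPM per kb, and Mvd, the mevalonate diphosphate decarboxylase, lowest with 5.42 ± 0.663. Of the 10 later steps, Ebp, a sterol isomerase, was highest with 25.3 ± 2.07, and Lss, the lanosterol synthase that closes the ring, was lowest of all with 2.52 ± 0.293. The highest and lowest of the 28 genes were 28-fold apart. The lowest and highest library of a single gene were at most 1.98-fold apart, for Acaca. The median of all tested genes was 9.68 CPM per kb, 16 of the 28 genes were above it, 4 were above the 75th percentile and 1, Lss, was below the 25th. In reads, the thinnest value was Mvd in Poly(A:U) 5, with 154 reads and a counting error of 8.06%.

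**Figure D1:**
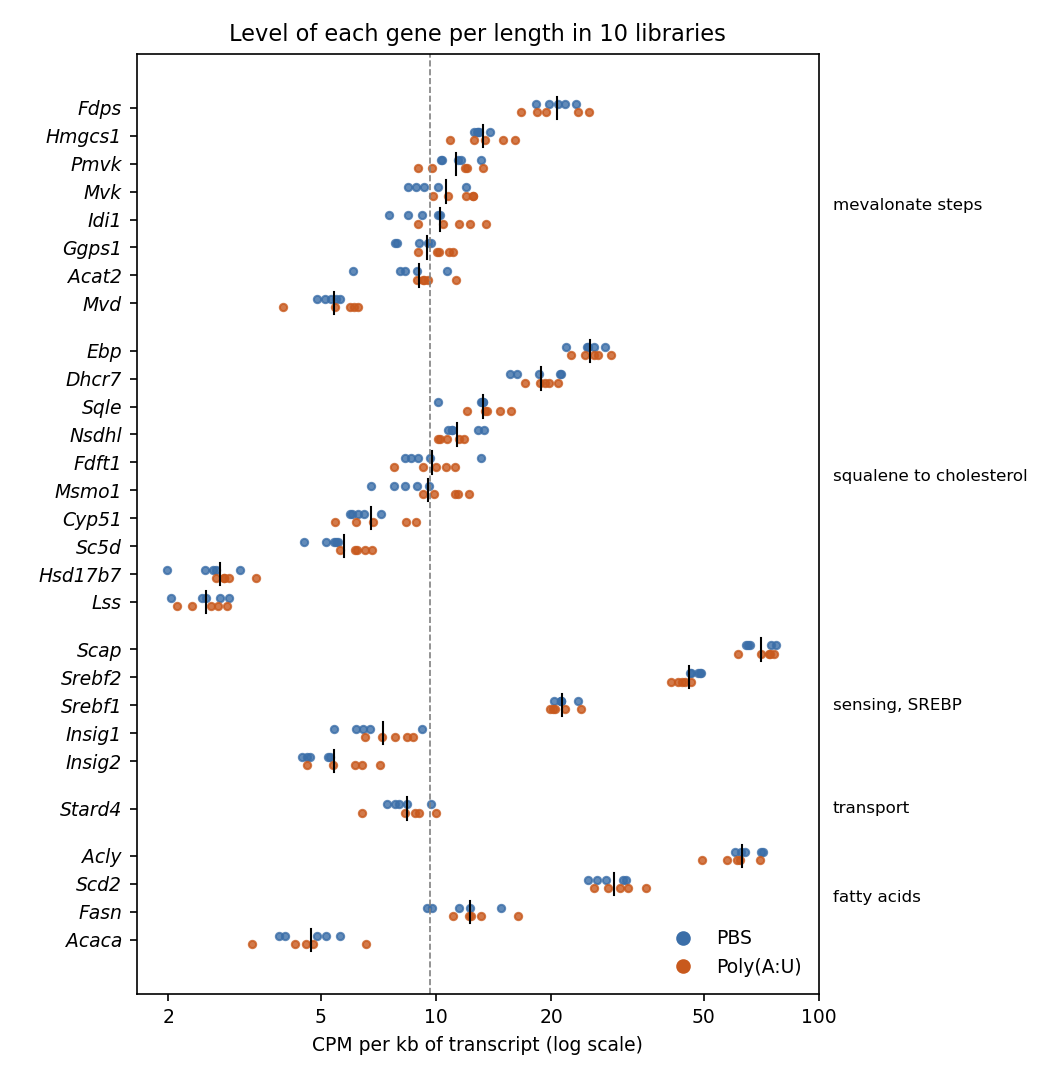
Level of each of the 28 genes in CPM per kb of transcript on a log axis, with 1 point per library (5 PBS, 5 Poly(A:U)) and a black bar at the mean of all 10. The dashed line is the median of all tested genes, 9.68 CPM per kb; Scap, Acly and Srebf2 stand to its right and Lss and Hsd17b7 to its left in every library.

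None of the 28 genes passed the test between Poly(A:U) and PBS. edgeR's quasi-likelihood test, with Benjamini-Hochberg adjustment over all tested genes, called 0 of 28, against 0.0% of all genes, and the smallest adjusted p of any gene was 0.677. Unadjusted p was under 0.05 for 4 of the 28, against 7.3% of all genes. These were Msmo1, Sc5d and Idi1, with higher values in Poly(A:U) libraries (4.11% of all genes), and Srebf2, with lower values (3.19% of all genes). In bulk samples a lower value can come from fewer cells of a type or from less RNA per cell, which cannot be told apart.

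The fold changes were small. Log2 fold changes, given as Poly(A:U) minus PBS, ran from -0.16 to 0.35 with a median of 0.04, against a median of -0.002 over all tested genes, and 19 of the 28 were above 0, against 49.4% of all genes. For 27 of the 28, all but Msmo1, the 95% interval excluded a change of 1.5-fold in either direction. The same held for 64.3% of all tested genes and for 87.6% of the genes within the CPM range of the 28. The spread within a group was a median of 10.1% of the mean for PBS and 11.6% for Poly(A:U).

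**Figure D2:**
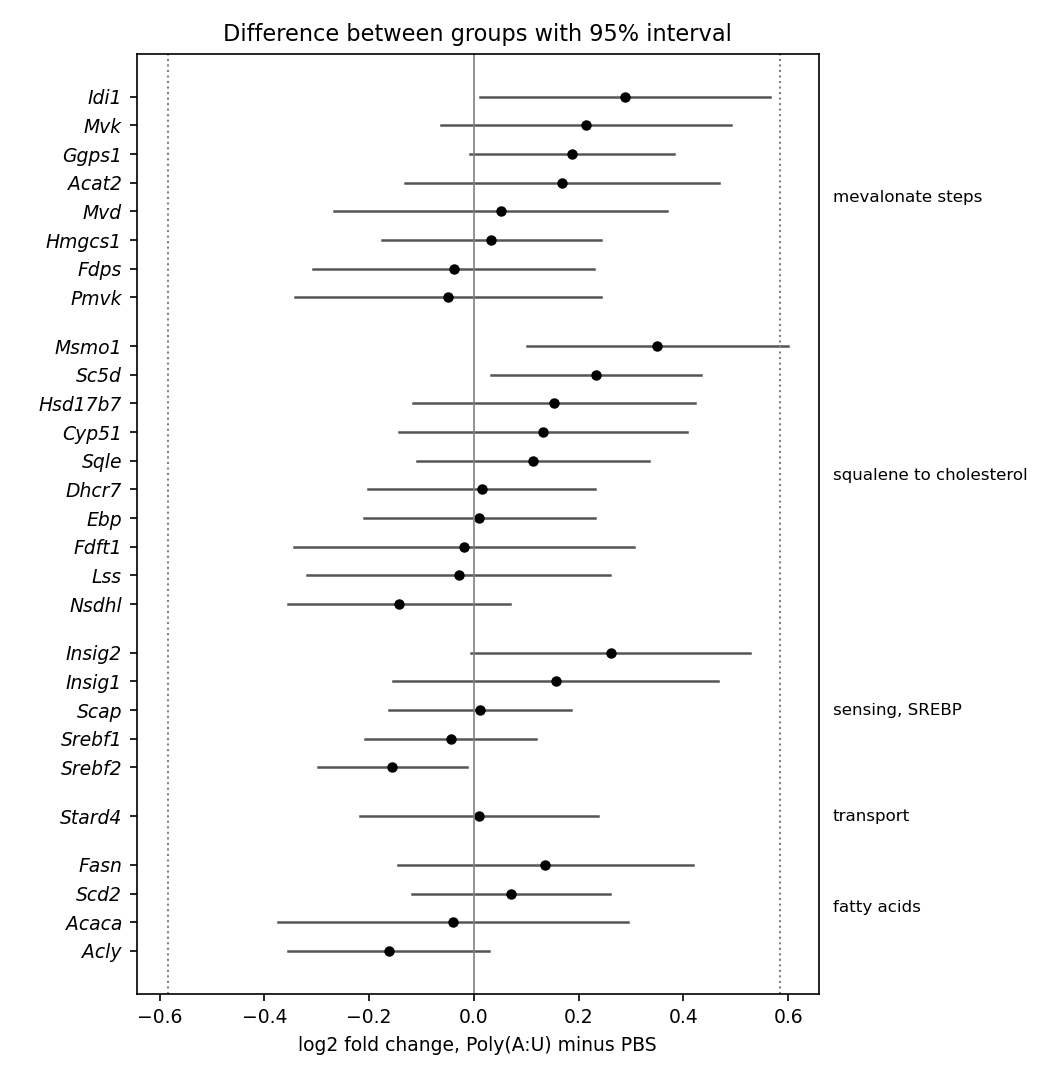
Log2 fold change (Poly(A:U) minus PBS, edgeR) of each gene with its 95% interval, grouped by role. Dotted lines mark a change of 1.5-fold in either direction; the interval of Msmo1 crosses the upper one and all others stay between them.

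Among the 8 genes that make mevalonate and turn it into isoprenoids, 6 had positive and 2 negative log2 fold changes, with a median of 0.11. Idi1, the isomerase that supplies the allylic isoprene unit (chr13:8885501-8892451), had 27.8, 25.5, 22.8, 30.9 and 30.7 CPM in PBS 1 to 5 and 31.5, 34.8, 37.1, 40.8 and 27.1 CPM in Poly(A:U) 1 to 5. Poly(A:U) 1 to 4 were above every PBS library and Poly(A:U) 5 was below 3 of them. Idi1 had a log2 fold change of 0.29 ± 0.128 (SE, edgeR adjusted p = 0.677).

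Ggps1, which makes the geranylgeranyl chain added to small GTPases, had 27.2, 30.9, 26.9, 33.3 and 32.7 CPM in the PBS libraries and 34.6, 30.8, 35.0, 37.0 and 38.0 CPM in the Poly(A:U) libraries. Poly(A:U) 2 alone lay within the PBS range, and the log2 fold change was 0.19 ± 0.090 (edgeR adjusted p = 0.692). Hmgcs1, the synthase that makes HMG-CoA, had 44.8, 41.8, 41.9, 40.8 and 41.5 CPM in the PBS libraries and 35.2, 40.7, 48.5, 52.2 and 43.6 CPM in the Poly(A:U) libraries. The PBS values of Hmgcs1 spanned a narrow band, with a coefficient of variation of 3.69%, and the Poly(A:U) values lay on both sides of it, with 15.1%.

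The other 5 genes of these steps averaged as follows. Acat2, which condenses acetyl-CoA, had 18.5 ± 3.66 CPM (SD, n = 5) in PBS and 21.2 ± 2.07 in Poly(A:U). Mvk, the mevalonate kinase, had 15.6 ± 2.24 and 18.4 ± 1.88. Pmvk, the next kinase, Mvd and Fdps differed by less than their SDs, with group means of 13.4 and 13.2, 9.29 and 9.77, and 26.3 and 26.1 CPM.

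Among the 10 genes that lead from squalene synthesis to cholesterol, 7 had positive and 3 negative log2 fold changes, with a median of 0.06. Msmo1, the C-4 methylsterol oxidase (chr8:64718139-64733792), had the largest of all 28. Its values were 12.6, 14.5, 15.5, 16.7 and 17.9 CPM in PBS 1 to 5 and 17.3, 18.4, 22.7, 20.8 and 21.2 CPM in Poly(A:U) 1 to 5. By summed reads the groups overlapped only by Poly(A:U) 1, which lay below PBS 5. In the authors' deposited table Poly(A:U) 1, 2 and 5, at 17.3, 19.4 and 17.4, all lay below PBS 5 at 19.6. The log2 fold change was 0.35 ± 0.115, or 1.27-fold, with an unadjusted p of 0.00976 and an edgeR adjusted p of 0.677.

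Sc5d, the sterol C5 desaturase that acts near the end of the pathway (chr9:42251595-42264256), had 15.6, 19.1, 17.8, 18.7 and 18.9 CPM in the PBS libraries and 19.3, 21.2, 22.4, 21.4 and 23.5 CPM in the Poly(A:U) libraries. It was the 1 gene of the 28 whose groups did not overlap, against 0.947% of all tested genes, and the gap was narrow, from 19.1 CPM in PBS 2 to 19.3 CPM in Poly(A:U) 1. Its log2 fold change was 0.23 ± 0.093 (edgeR adjusted p = 0.677). In the authors' deposited table Sc5d stood at 19.8 in PBS 4 and 19.6 in Poly(A:U) 2, so there its groups overlapped. The authors' deposited table held 0 of the 28 genes with groups that did not overlap, against 0.766% of all its genes.

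Sqle, the squalene epoxidase and a slow step of the pathway, had 36.6, 36.2, 36.8, 36.4 and 28.04 CPM in the PBS libraries and 33.3, 37.2, 43.3, 40.6 and 37.5 CPM in the Poly(A:U) libraries. PBS 5 was the lowest of the 10, and the other 4 PBS values lay within 1 CPM of each other. Sqle had a log2 fold change of 0.11 ± 0.102 (edgeR adjusted p = 0.772), which became 0.03 when PBS 5 was left out and 0.07 when Poly(A:U) 3 was.

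The remaining sterol enzymes had overlapping groups. Cyp51, the lanosterol demethylase, ran from 23.4 to 28.1 CPM in PBS and from 21.3 to 34.7 CPM in Poly(A:U). Hsd17b7, a ketosteroid reductase, had 11.8 ± 1.81 and 13.3 ± 1.31 CPM, and Nsdhl, a sterol dehydrogenase, had 25.5 ± 2.60 and 23.6 ± 1.64 CPM. Fdft1, which makes squalene, ran from 24.8 to 39.2 CPM in PBS, where PBS 4 was far above the others. Lss, Ebp and the last enzyme Dhcr7 had group means of 12.5 and 12.5, 41.7 and 42.7, and 47.4 and 48.8 CPM, with log2 fold changes between -0.03 and 0.01.

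**Figure D3:**
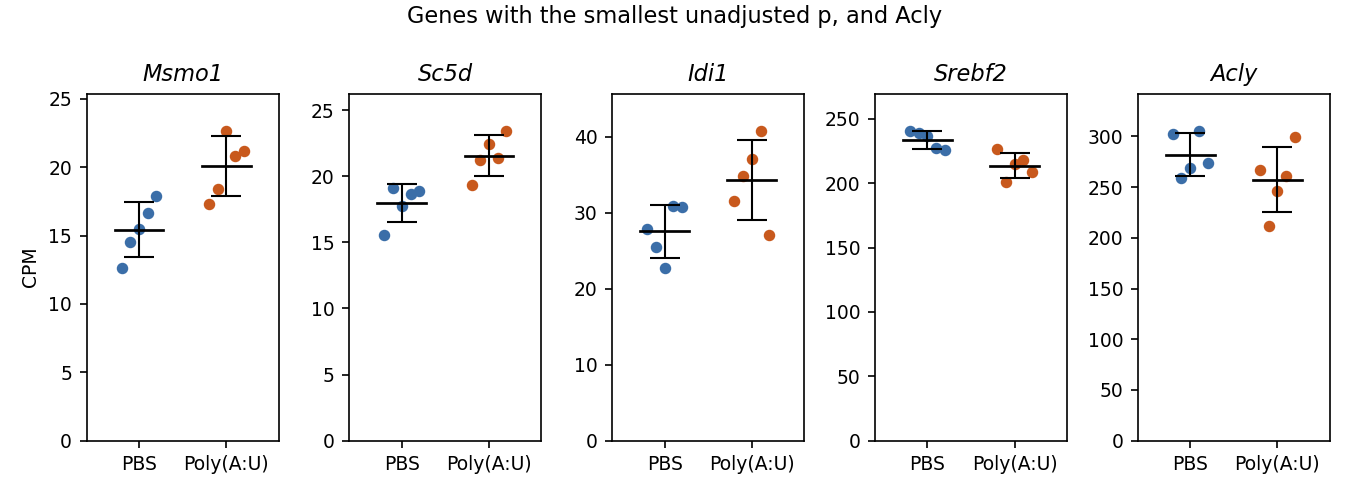
CPM of the 4 genes with unadjusted p under 0.05 (Msmo1, Sc5d, Idi1, Srebf2) and of Acly, with 1 point per library in the order of its number, a bar at the group mean and whiskers of 1 SD (n = 5). Sc5d shows no overlap between groups; the other 4 overlap.

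Of the 5 sensing genes, Srebf2 (chr15:82147181-82205379) had the smallest spread. Its values were 241, 239, 237, 227 and 226 CPM in PBS 1 to 5 and 226, 201, 215, 218 and 209 CPM in Poly(A:U) 1 to 5. Of the Poly(A:U) libraries, 4 were below every PBS library and Poly(A:U) 1 lay just above PBS 5. The log2 fold change was -0.16 ± 0.065, or 0.90-fold, with an unadjusted p of 0.034 and an edgeR adjusted p of 0.677.

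Srebf1, whose products serve fatty acid genes above all, had 93.3, 84.0, 84.1, 80.6 and 84.2 CPM in the PBS libraries and 94.9, 80.9, 78.8, 80.1 and 86.0 CPM in the Poly(A:U) libraries. PBS 1 and Poly(A:U) 1 were the 2 high values, and the log2 fold change was -0.04 ± 0.075 (edgeR adjusted p = 0.885). Scap had group means of 289.8 ± 24.8 and 298 ± 24.6 CPM.

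Insig1, itself a target of SREBP, had 16.6, 17.3, 14.5, 24.7 and 18.1 CPM in the PBS libraries and 21.0, 17.5, 23.4, 22.5 and 19.4 CPM in the Poly(A:U) libraries. Its highest value was PBS 4, and the log2 fold change was 0.16 ± 0.143 (edgeR adjusted p = 0.776), which was 0.30 without PBS 4 and 0.08 without PBS 3. Insig2 had 11.6, 13.5, 13.7, 12.1 and 11.9 CPM in the PBS libraries and 11.9, 13.9, 18.5, 16.6 and 15.9 CPM in the Poly(A:U) libraries. Poly(A:U) 2 to 5 were above every PBS library and Poly(A:U) 1 was within them, with a log2 fold change of 0.26 ± 0.123 (edgeR adjusted p = 0.686).

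The Srebf1 promoters shown above give the 1a form, the stronger activator, and the 1c form, the one best known from liver and fat. They were told apart by the opening exon of the transcript, at chr11:60220453-60220604 for 1a (transcript Srebf1-201) and chr11:60210336-60210465 for 1c (Srebf1-207 and a short noncoding transcript), both on the minus strand. Nearly all reads of the 2 forms were of 1a, with 96.5%, 98.4%, 99.6%, 95.9% and 94.8% in PBS 1 to 5 and 98.2%, 99.7%, 94.8%, 90.1% and 90.7% in Poly(A:U) 1 to 5. The groups overlapped and averaged 97.0% ± 1.94 and 94.7% ± 4.29 (SD, n = 5). The difference did not pass an exact two-sided permutation test (p = 0.286, the smallest p of this design being 0.00794), and TPM values gave 96.0% and 91.5% (exact permutation p = 0.278). The files give estimated reads per transcript, so the share depends on how reads of the shared exons were assigned.

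Stard4, which carries cholesterol between membranes and is a known SREBP target, had 48.3, 41.6, 39.7, 37.0 and 38.8 CPM in the PBS libraries and 41.3, 31.9, 44.7, 43.6 and 49.7 CPM in the Poly(A:U) libraries. The highest and the lowest library were both of the Poly(A:U) group. Stard4 had a log2 fold change of 0.01 ± 0.105 (edgeR adjusted p = 0.986).

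Of the 4 fatty acid genes, 2 had positive and 2 negative log2 fold changes. Acly had 303, 258, 268, 306 and 274 CPM in the PBS libraries and 267, 212, 246, 261 and 299 CPM in the Poly(A:U) libraries. The lowest was Poly(A:U) 2 and the highest PBS 4, and the log2 fold change was -0.16 ± 0.089 (edgeR adjusted p = 0.695). Acly reads fell mainly on 2 transcripts that open with different exons, Acly-203 with 55.5% ± 4.21 of them and Acly-207 with 42.3% ± 5.52 (SD, n = 10). Acly-203 had 57.6% ± 3.94 in PBS and 53.3% ± 3.62 in Poly(A:U), a difference of about the size of these SDs that was not tested.

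Scd2, the stearoyl-CoA desaturase that makes monounsaturated fatty acids, had 151, 143, 167, 135 and 169.9 CPM in the PBS libraries and 153, 140.4, 164, 172 and 192 CPM in the Poly(A:U) libraries. The groups overlapped over most of their range, with a log2 fold change of 0.07 ± 0.087 (edgeR adjusted p = 0.833), which became 0.04 when PBS 4 was left out and 0.015 when Poly(A:U) 5 was. Scd1, its relative, was higher per length, with 40.7 ± 6.45 CPM per kb against 29.2 ± 3.21 for Scd2. The level of Scd1 was highest in PBS 5, at 49.8 CPM per kb, and lowest in PBS 4, at 28.2.

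Fasn, the fatty acid synthase, had 97.5, 74.9, 77.6, 117 and 91.0 CPM in the PBS libraries and 97.7, 87.7, 96.6, 104 and 129 CPM in the Poly(A:U) libraries, from summed reads. The log2 fold change was 0.14 ± 0.130 (edgeR adjusted p = 0.785). Leaving out PBS 4 gave 0.25, leaving out PBS 2 or PBS 3 gave 0.07 or 0.08, and leaving out Poly(A:U) 5 gave 0.05. Acaca, the acetyl-CoA carboxylase that commits carbon to fatty acids, was described in full after its values were seen. It had 46.3, 36.1, 44.0, 50.3 and 34.9 CPM in the PBS libraries and 38.6, 29.8, 42.8, 41.1 and 58.8 CPM in the Poly(A:U) libraries. The PBS values lay inside the Poly(A:U) range, and its log2 fold change was -0.04 ± 0.154 (edgeR adjusted p = 0.955).

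For both Fasn and Acaca the 2 highest libraries were PBS 4 and Poly(A:U) 5, the pair with a shared name part. The same pair was highest for 1311 of all tested genes (9.55%), and for 2 of the 28. In the authors' deposited table it was highest for 3 of the 28, Srebf1, Insig2 and Acaca but not Fasn, against 8.21% of its genes. These 2 libraries also had the highest sums of 8 proliferation genes, 3592 and 4050 CPM, against at most 3088 CPM in the others. Mki67 alone gave 1677 CPM of the sum in Poly(A:U) 5. The pair was highest for Top2a, Mcm2, Ccnb1 and Aurkb, but not for Mki67, Pcna, Cdk1 and Birc5. Acaca and Fasn have the longest transcripts of the 28, at 8972 and 7919 bases weighted by reads. Genes over 6000 bases had a median log2 deviation of 0.42 in Poly(A:U) 5 and -0.34 in Poly(A:U) 2, where Acaca was lowest, but of -0.19 in PBS 4. Their part in the values of Fasn and Acaca was not tested.

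The libraries of the Poly(A:U) group were not alike in the sterol pathway. Of the 18 genes from Acat2 to Dhcr7, all 18 were above their 10-library mean in Poly(A:U) 3 and 15 in Poly(A:U) 4, against 8 to 10 in the other 3 Poly(A:U) libraries and 4 to 11 in the PBS libraries. The median deviation was 0.18 in Poly(A:U) 3 and 0.19 in Poly(A:U) 4 on the log2 scale, and -0.05 in Poly(A:U) 5. All tested genes, split by transcript length and with 0.5 CPM added, had medians that were shifted too. These medians ran from -0.02 to 0.05 in Poly(A:U) 3, from -0.02 to 0.06 in Poly(A:U) 4 and from -0.16 to 0.42 in Poly(A:U) 5. The share of all tested genes above their mean was not counted. With the TMM scaling factors the counts for Poly(A:U) 3 and 4 were 18 and 14 of 18, and PBS 4 had 13. With values taken from the authors' deposited table they were 15 and 13, and PBS 4 again had 13, as many as Poly(A:U) 4. The median deviation there was 0.14 and 0.17 in Poly(A:U) 3 and 4 and 0.12 in PBS 4, so on that scale the pair did not stand apart from PBS 4.

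Poly(A:U) 3 and 4, which share a name part, were the 2 highest libraries for 6 of the 28 genes, Hmgcs1, Idi1, Fdps, Sqle, Cyp51 and Insig2, against 483 of all tested genes (3.52%). The authors' deposited table gave 4 of 28, Idi1, Sqle, Cyp51 and Msmo1, against 1.78% of its genes. These counts were made after the values were seen. In a test of the name parts with treatment kept as a term, edgeR called 0 of the 28 genes, against 3.54% of all genes. The smallest adjusted p was that of Acaca (edgeR adjusted p = 0.0708). Without PBS 4 the same test called 1 of 28, Acaca (edgeR adjusted p = 0.0253), against 13.7% of all genes.

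**Figure D4:**
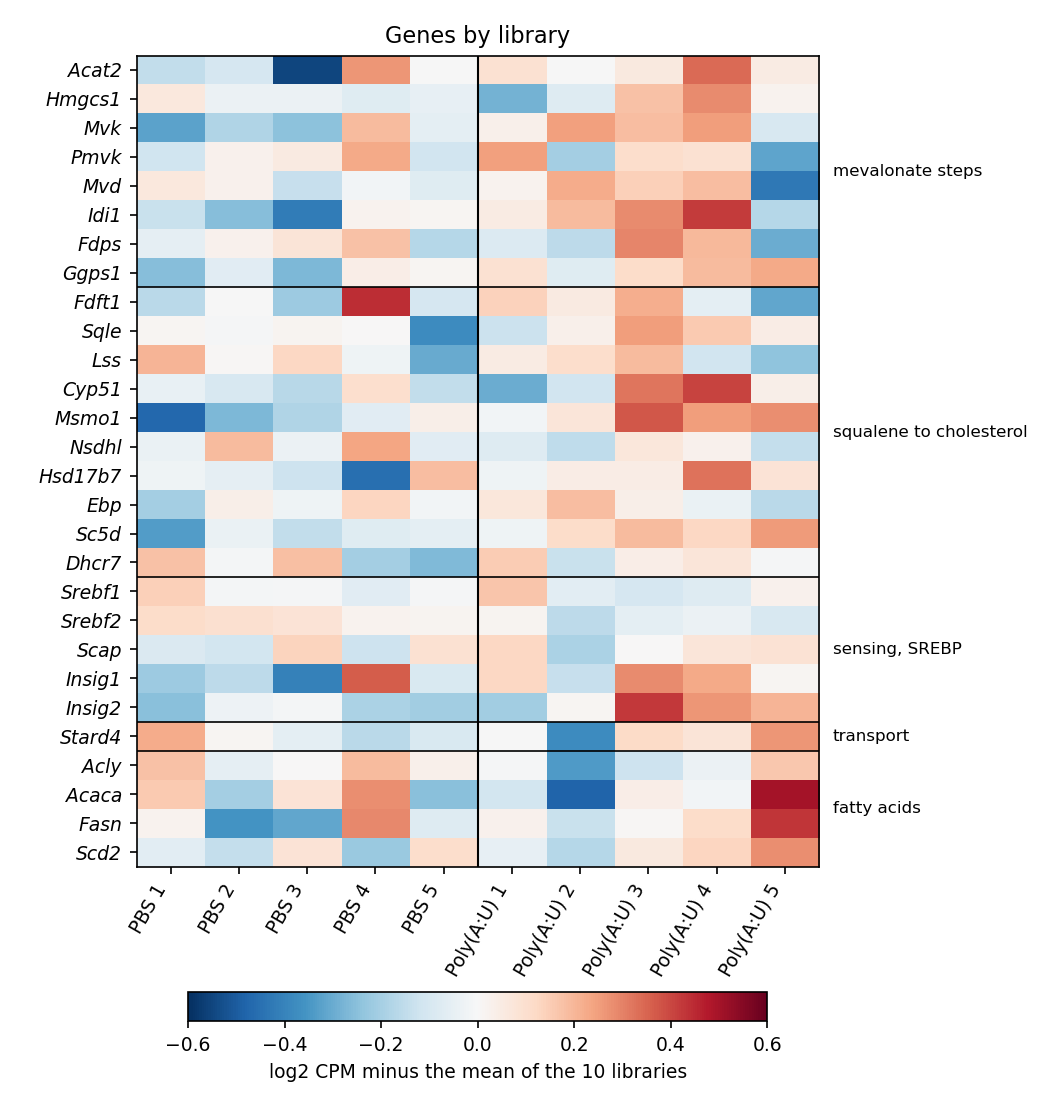
Log2 CPM of each gene minus its mean over the 10 libraries, from summed reads (red above, blue below), with genes grouped by role and a line between PBS and Poly(A:U). The 18 sterol pathway genes are all above their mean in Poly(A:U) 3, and Acaca and Fasn are highest in Poly(A:U) 5.

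The library names also bear on the comparison of treatments, since PBS 1, 2 and 3 share a name start that no Poly(A:U) library has, and these were the libraries with the highest neutrophil and the lowest erythroid sums. Without them, with 2 PBS libraries left, the log2 fold changes of Msmo1 and Idi1 were 0.18 and 0.12, in place of 0.35 and 0.29. Those of Sc5d and Srebf2 were 0.17 and -0.11. Ggps1 was at 0.06 in place of 0.19 and Sqle at 0.22 in place of 0.11, while Insig1 and Fasn were at -0.08 and -0.05, below 0. With every shared name part as a term, the treatment term rested on 2 pairs alone. These were PBS 4 with Poly(A:U) 5, and PBS 5 with Poly(A:U) 1. In that fit Msmo1 was at 0.10, Sc5d at 0.13, Srebf2 at -0.11 and Idi1 at -0.13, which is the other direction. Ggps1 was then at 0.08 and Insig2 at 0.15. None of these values passed the test, and the part of the other cell types in them was not tested.

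The same 2 pairs of PBS and Poly(A:U) libraries with a shared name part gave single comparisons without replicates. Their values are not separate from the fit with every name part as a term. Msmo1 had 16.7 CPM in PBS 4 and 21.2 in Poly(A:U) 5, but 17.9 in PBS 5 and 17.3 in Poly(A:U) 1. For Sc5d the Poly(A:U) library was higher in both pairs, 23.5 against 18.7 and 19.3 against 18.9 CPM. Srebf2 was lower in the Poly(A:U) library of the PBS 4 pair, 209 against 227 CPM, and near equal in the other, 226 in each. Idi1 was lower in 1 pair, 27.1 against 30.9 CPM, and higher in the other, 31.5 against 30.7.

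The way reads of transcripts were combined changed the values of some genes. Up to a constant per library and per gene, the authors' deposited table followed TPM summed per gene and scaled by a fixed gene length. Log2 differences were taken with 1 added to each value. The median of each library and then the mean of each gene were taken off. The median absolute remainder was 0.000217 over 9077 genes of over 10 CPM, against 0.0277 for summed reads. On that scale a short transcript model weighs more than its reads. For 25 of the 28 genes both scales were within 0.5 on the log2 scale in every library, and for Fasn, Insig2 and Lss they were not.

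Fasn was the clearest case. By summed reads Poly(A:U) 5 was the highest library with 129 CPM, and in the authors' deposited table it was the lowest with 69.1. The transcript model Fasn-202, a retained intron of 762 bases, took 3.04% to 6.46% of Fasn reads in the other 9 libraries, which was 19.1% to 30.7% of the Fasn TPM, and was listed at 0 in Poly(A:U) 5. For Insig2, PBS 4 was inside the PBS range by reads with 12.1 CPM, and the authors' deposited table gave it 23.5, the highest of the 10. There the retained intron model Insig2-206, of 334 bases, took 7.44% of the reads and 41.5% of the TPM, and it was listed at 0 in 8 libraries. The log2 fold change of Insig2 was 0.26 from summed reads and -0.05 from the authors' deposited table, and that of Fasn was 0.14 and 0.04. Ggps1 was at 0.19 and 0.10. The high value of Acaca in Poly(A:U) 5 stood on both scales, at 58.8 CPM from reads and 76.8 in the authors' deposited table.

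**Figure D5:**
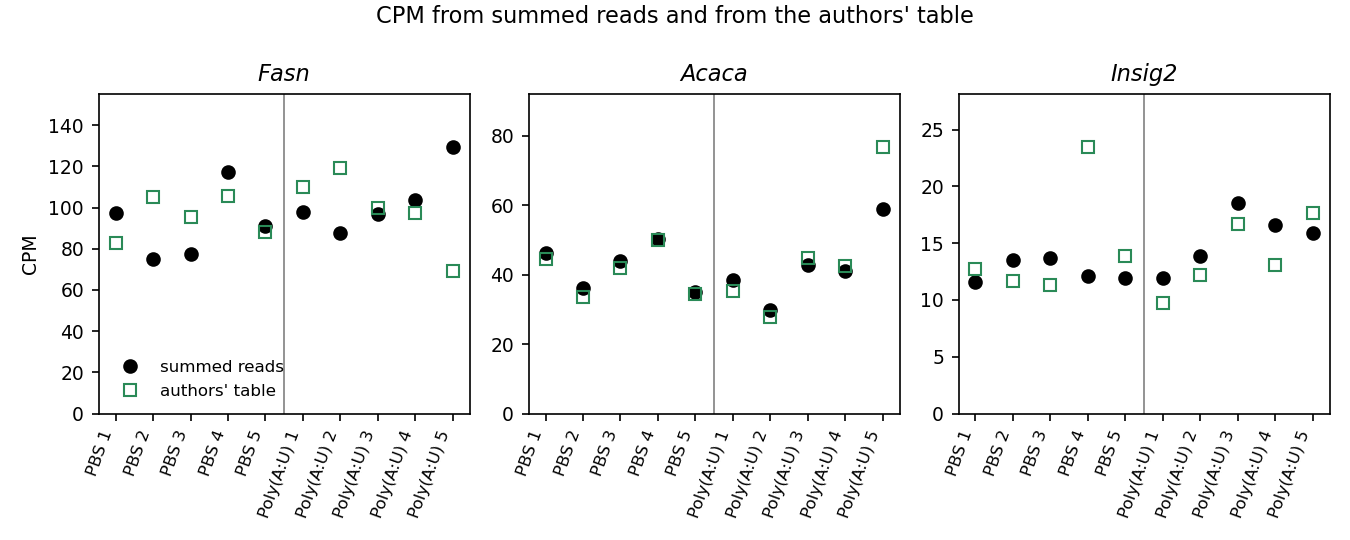
CPM of Fasn, Acaca and Insig2 in each library from summed reads (filled circles) and from the authors' deposited table (open squares), with a line between PBS and Poly(A:U). The scales part for Fasn in Poly(A:U) 5 (129 against 69.1) and for Insig2 in PBS 4 (12.1 against 23.5).

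Transcript shares were otherwise simple, with 1 transcript holding over 90% of the reads in 17 of the 28 genes. Sc5d reads were divided between Sc5d-201 with 56.9% ± 4.45 and Sc5d-202 with 42.4% ± 4.19 (SD, n = 10), in nearly the same proportion in both groups. Msmo1 reads were divided between Msmo1-201 with 69.8% ± 12.8 and the noncoding Msmo1-206 with 26.9% ± 12.5. By itself Msmo1-201 ran from 8.88 to 14.1 CPM in PBS and from 10.6 to 20.1 CPM in Poly(A:U). The retained intron transcript Lss-204 held 26.0% ± 3.16 of Lss reads in PBS and 15.7% ± 6.55 in Poly(A:U) (SD, n = 5). The Lss difference was picked out after the values were seen and was not tested.

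Other tools gave other counts on the same genes. DESeq2's Wald test called 13 of the tested genes (0.0947%) and none of the 28. limma voom with quality weights, which weights libraries by how far they stray, called 870 (6.34%) and 4 of the 28, all with positive values. These were Msmo1 at 0.47 and Idi1 at 0.45 (limma adjusted p = 0.0325 for each), Insig1 at 0.38 (limma adjusted p = 0.0437) and Mvk at 0.34 (limma adjusted p = 0.0458), against 3.39% of all genes called with positive values. These 4 calls were made by limma voom alone of the tools run.

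The wider pathway was read from 60 further genes, of which 57 were tested, and edgeR called 0 of them. Their log2 fold changes were positive for 23 and negative for 34, with a median of -0.02. An unadjusted edgeR p under 0.05 was found for 5 of the 57, against 7.3% of all tested genes. The 3 genes not tested, Soat2, Ch25h and Me1, had next to no reads.

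Of the 5 genes with an unadjusted p under 0.05, 3 were users of isoprenoids, all with positive values. Over all tested genes, 4.11% were under 0.05 with positive values. Rabggtb, a subunit of the transferase that adds geranylgeranyl to Rab proteins, had 18.3, 16.9, 16.6, 16.5 and 21.3 CPM in the PBS libraries and 20.0, 25.2, 26.1, 29.97 and 23.6 CPM in the Poly(A:U) libraries. Only Poly(A:U) 1 and PBS 5 overlapped, with a log2 fold change of 0.45 ± 0.116, an unadjusted p of 0.00192 and an edgeR adjusted p of 0.677. Nus1, a subunit of the enzyme that makes dolichol chains, had 67.1 ± 5.22 and 78.01 ± 6.76 CPM, with a log2 fold change of 0.19 ± 0.077. Of the 12 genes in this list, 6 were positive and 6 negative.

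Genes of sterol uptake, storage and export had negative values in 10 of 14 tested, with a median of -0.12. Abcg1, a sterol exporter and target of the oxysterol receptors, had 73.3, 73.8, 70.6, 51.5 and 64.8 CPM in the PBS libraries and 68.9, 44.7, 48.1, 54.5 and 54.8 CPM in the Poly(A:U) libraries. PBS 4 was low and Poly(A:U) 1 high for their groups, and the log2 fold change was -0.33 ± 0.124 (edgeR adjusted p = 0.677). Lpcat3, a phospholipid acyltransferase, had 53.2 ± 5.84 and 45.5 ± 3.53 CPM, with a log2 fold change of -0.25 ± 0.094 (edgeR adjusted p = 0.677). limma voom called 4 of the 57, against 6.34% of all tested genes, namely Abcg1, Rabggtb, Nus1 and Mylip, the ubiquitin ligase also known as Idol, which was named after its values were seen.

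In the other 3 lists no gene had an unadjusted p under 0.05. Of the cholesterol synthesis genes outside the 28, Lbr, the lamin B receptor that also carries a sterol reductase, had 406 ± 31.8 and 429 ± 59.3 CPM, and the other reductase Tm7sf2 had 1.72 ± 0.60 and 2.39 ± 0.52. Per length Lbr reached 122 CPM per kb, above every one of the 28 genes. Of the SREBP processing genes, Ube2g2, a ubiquitin-conjugating enzyme, had 59.5 ± 8.82 and 51.0 ± 7.23 CPM. Of the fatty acid genes, Mcat, the mitochondrial malonyl transferase, had 28.7 ± 4.62 and 25.4 ± 2.06 CPM, and the desaturase Fads2 ran from 8.68 to 15.4 CPM in 9 libraries and stood at 46.2 CPM in PBS 4. Fads2 had the log2 fold change farthest from 0 of the 57, at -0.68 (edgeR adjusted p = 0.7098).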

How the data were processed

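The 10 libraries were bulk RNA-seq of sorted cells, 5 per group, with each pup a separate sample per the series' design text. Per the file headers, the authors deposited estimated counts and TPM for 142333 transcripts per library. For 13699 genes the authors' deposited table gives a signal, CPM after normalization by edgeR per its name. DRAGEN, edgeR 3.38.4 and mm10 are named by the submitters' processing notes. Strand use and annotation are not stated there. Estimated counts were summed per gene with GENCODE M21, rounded, and kept by filterByExpr (minimum count 10), leaving 13729 genes. Groups were compared with edgeR 4.0.16 (R 4.3.3), a quasi-likelihood test with TMM factors, robust fit, treatment as the only term and Benjamini-Hochberg adjustment over all genes at 0.05, two-sided. Standard errors and 95% intervals come from that fit. CPM in the text are before TMM. The test was checked on simulated data. DESeq2 1.42.0 and limma 3.58.1 (on the authors' deposited CPM with a pseudocount of 1, and voom) were alternatives, with other normalizations, filters, name parts as terms and libraries left out. TPM served for the Srebf1 share and, summed per gene, as a check on the authors' table.

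The 28 genes, the 60 further genes, the markers and the tests were chosen with earlier results of these data known. Values in every library are given for the 2 genes with the smallest unadjusted p in each role (not transport), for Stard4, Srebf1, Srebf2, Insig1, Hmgcs1, Sqle, Fasn and Scd2, and for any gene whose groups do not overlap. Of the further genes the 2 with the smallest unadjusted p in each list are named, apart from 1 that is not reported here. Reads of overlapping genes cannot be told apart if strand was not used. Fdft1 overlaps Ctsb, Cyp51 overlaps Akap9, Ggps1 overlaps Arid4b and Srebf1 overlaps Rai1, each on the other strand. Hmgcs1, Mvd, Idi1, Lss, Scap, Insig2 and Acaca each also overlap an annotated gene on the other strand. Counting errors cover the counting of reads only.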

Additional observations from a re-analysis of the deposited data

Results flagged for a closer look

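In 7 of 78 groups of 5 libraries (the 28 genes, the 10 further genes named by rule and the Srebf1 share, each in PBS and in Poly(A:U)), 1 library stood off from the other 4 by a gap of more than 0.71 of the whole range. Chance alone marks about 1 in 20 groups. PBS 4 was high for Fads2, with 46.22 CPM against 12.88 for the next library, and for Fdft1, with 39.23 CPM against 28.79. PBS 5 was low for Sqle, with 28.04 CPM against 36.19, and for Lpcat3, with 42.84 CPM against 54.22. PBS 1 was high for Srebf1, with 93.31 CPM against 84.22, and for Hmgcs1, with 44.85 CPM against 41.91. Poly(A:U) 4 was high for Acat2, with 24.82 CPM against 20.9.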

How the results depend on the processing

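In the comparison of Poly(A:U) with PBS, no setting of edgeR or DESeq2, nor limma on the authors' CPM, called any of the 28 genes. The number of genes called in all was 0 with edgeR, 13 with DESeq2's Wald test and 870 with limma voom with quality weights, and 0 to 18 when 1 library was left out, the 18 coming without PBS 5. Only limma voom called genes of the 28 (4) and of the further list (4). The median log2 fold change of the 28 was 0.04, 0.03 to 0.07 with 1 library left out, and -0.0364 with all shared name parts as terms. Of 322 values of the 14 genes given in every library, 23 were in the other direction, none of them called. With the authors' CPM these were Hmgcs1 at -0.0254, Srebf1 at 0.0127, Insig2 at -0.0501 and Stard4 at -0.0149. With the name start as a covariate they were Insig1 at -0.0843 and Fasn at -0.0581. With all shared name parts they were Hmgcs1 at -0.123, Idi1 at -0.129, Srebf1 at 0.0793 and Insig1 at -0.124. Without PBS 1, 2 and 3 they were Srebf1 at 0.000405, Insig1 at -0.0786 and Fasn at -0.0532. Without PBS 4 and Poly(A:U) 5, a setting chosen after seeing the data as was the test of name parts, they were Stard4 at -0.0696 and Scd2 at -0.0111. Stard4 was at -0.00231 with RLE factors and -0.00226 with DESeq2. With 1 library left out Stard4 ran from -0.0509 to 0.0763 and Hmgcs1 from -0.0283 to 0.10. The cause of these changes was not tested. Under every setting except limma voom, the smallest adjusted p of these 14 genes was 0.108. The difference in the 1a share of Srebf1 ran from -3.59 to -1.19 percentage points with 1 library left out. Replicate numbers did not pair the libraries (correlations of same-numbered deviations from -0.18 to 0.14), and with the replicate block edgeR called 0 genes and 0 of the 28, with a median of 0.03. The counting error was at most 8.06% of a value, against a median spread within groups of 10.1% and 11.6%.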

Other observations

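Coq2, the transferase that joins the isoprenoid tail of coenzyme Q, is one of the further genes and was picked out after its values were seen. It had 24.1 ± 2.41 CPM in PBS and 28.5 ± 1.597 in Poly(A:U) (SD, n = 5), with a log2 fold change of 0.22 ± 0.097 (SE, edgeR adjusted p = 0.677). The lowest Poly(A:U) value of Coq2, 25.7 CPM, was below the highest PBS value, 26.5 CPM.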
